A study of Mus musculus with 4 samples.

Results

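Factors that senescent cells are known to release were followed in the kidneys of aged mice, and the cells that held their transcripts were named. The 9 genes were Gdf15, Igfbp3, Igfbp5, Igfbp7, Timp1, Timp2, Mmp14, Tgfb1 and Tgfb2. They were taken by symbol from the 31053 mouse genes in the deposited tables, and all 9 were found. All mice were male C57BL/6 animals aged 19 months, and they were given either BPTES, an inhibitor of the enzyme glutaminase, or its vehicle DMSO for 1 month. Each group had 2 single-cell RNA libraries, here BPTES 1, BPTES 2, DMSO 1 and DMSO 2. Kidneys were digested with liberase, and 20000 CD45-negative and 9000 CD45-positive sorted cells were mixed for each library, so the sort set the share of leukocytes. The labels do not say whether the libraries of a group came from separate animals. The p-values therefore measure only the spread between these libraries, which may be technical.

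Senescent cells stop dividing but stay active, and release growth factors, proteases and matrix proteins that act on neighbouring cells. The insulin-like growth factor binding proteins (Igfbp3, Igfbp5 and Igfbp7) bind growth factors outside the cell and also act on cells directly. Mmp14 is a matrix metalloproteinase anchored in the cell membrane, and Timp1 and Timp2 are secreted inhibitors of this protease family. Timp2 also takes part in the activation of a further metalloproteinase by Mmp14. Tgfb1 and Tgfb2 encode transforming growth factors that are released in a latent form and, once activated, drive the deposition of matrix by fibroblasts. Gdf15 is a distant relative of these factors that cells make under stress. In the kidney, urinary IGFBP7 and TIMP2 are used as markers of acute tubular injury.

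All 9 genes are protein-coding in the GENCODE M21 annotation of GRCm38, the assembly that the submitters' notes name as mm10. Igfbp5 lies at chr1:72857932-72874884 and Tgfb2 at chr1:186622792-186705989, both on the minus strand. Igfbp7 lies at chr5:77349240-77408041 (minus), Tgfb1 at chr7:25687002-25705077 (plus) and Gdf15 at chr8:70629393-70632456 (minus). Igfbp3 lies at chr11:7206086-7213923 and Timp2 at chr11:118301069-118355740, both on the minus strand. Mmp14 lies at chr14:54431612-54445364 and Timp1 at chrX:20870166-20874735, both on the plus strand. Timp1 lies inside Syn1, which is on the opposite strand. Syn1 had a mean of 0.250 CPM in macrophages, 1.83 CPM in monocytes and 3.07 CPM in fibroblasts. Timp2 shares bases with Cep295nl on the same strand, and UMIs from the shared bases cannot be assigned to either gene with certainty.

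The files held 76278 barcodes, of which 46738 cells were kept. They formed 51 clusters, and 43 of these were joined into 18 classes by marker genes; each class name stands for "like" that cell type. A level below is CPM, the UMIs of a gene per 1000000 UMIs of all genes summed over the cells of a class in 1 library. For 11 classes, among them proximal tubule, endothelium and fibroblast, all of the class's markers were highest there. In macrophages, T cells, thick ascending limb and plasmacytoid dendritic cells, 1 marker was higher elsewhere. The other 3 names are weaker: 3 of 7 markers were highest in the monocyte class and 3 of 7 in the dendritic cell class, and 2 of 6, Krt20 and Sox9, in the injured proximal tubule class, where Sprr2f was at 0. Fibroblasts numbered 12 and 16 cells under BPTES against 34 and 182 cells under DMSO, too few for a test. Injured proximal tubule cells numbered 33 and 27 under BPTES against 202 and 236 under DMSO. The libraries shared 90 to 114 barcodes per pair, 0.501% to 0.618% of the smaller library.

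Over all kept cells, Timp1, Timp2, Mmp14, Gdf15 and Tgfb1 were lower in both BPTES libraries than in both DMSO libraries. Timp1 stood at 1.63 and 1.93 CPM under BPTES against 4.27 and 26.4 CPM under DMSO, and DMSO 2 was far above the other libraries. Mmp14 stood at 9.26 and 8.88 CPM under BPTES against 21.5 and 36.4 CPM under DMSO, and Timp2 at 37.5 and 33.98 CPM under BPTES against 51.5 and 60.98 CPM under DMSO. Gdf15 stood at 14.9 and 21.2 CPM under BPTES against 29.6 and 27.04 CPM under DMSO. Tgfb1, with the smallest gap of the 5 in proportion to its level, stood at 59.9 and 57.7 CPM under BPTES against 71.8 and 68.6 CPM under DMSO. The groups overlapped for the other 4 genes. How many of all genes lay apart in this sum was not counted, so the split is a description. Taken class by class, 27.2% of all tested genes lay below in this way and 19.4% above. Igfbp3 stood at 61.96 and 54.6 CPM under BPTES against 59.5 and 95.3 CPM under DMSO, and Igfbp5 at 240.3 and 187 CPM under BPTES against 195 and 233 CPM under DMSO. Igfbp7 stood at 842 and 873 CPM under BPTES against 724 and 1042 CPM under DMSO, and Tgfb2 at 8.37 and 5.44 CPM under BPTES against 5.69 and 9.83 CPM under DMSO. In such sums, fewer cells of a class and fewer transcripts per cell cannot be told apart, and the classes were therefore taken 1 at a time.

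**Figure D1:**
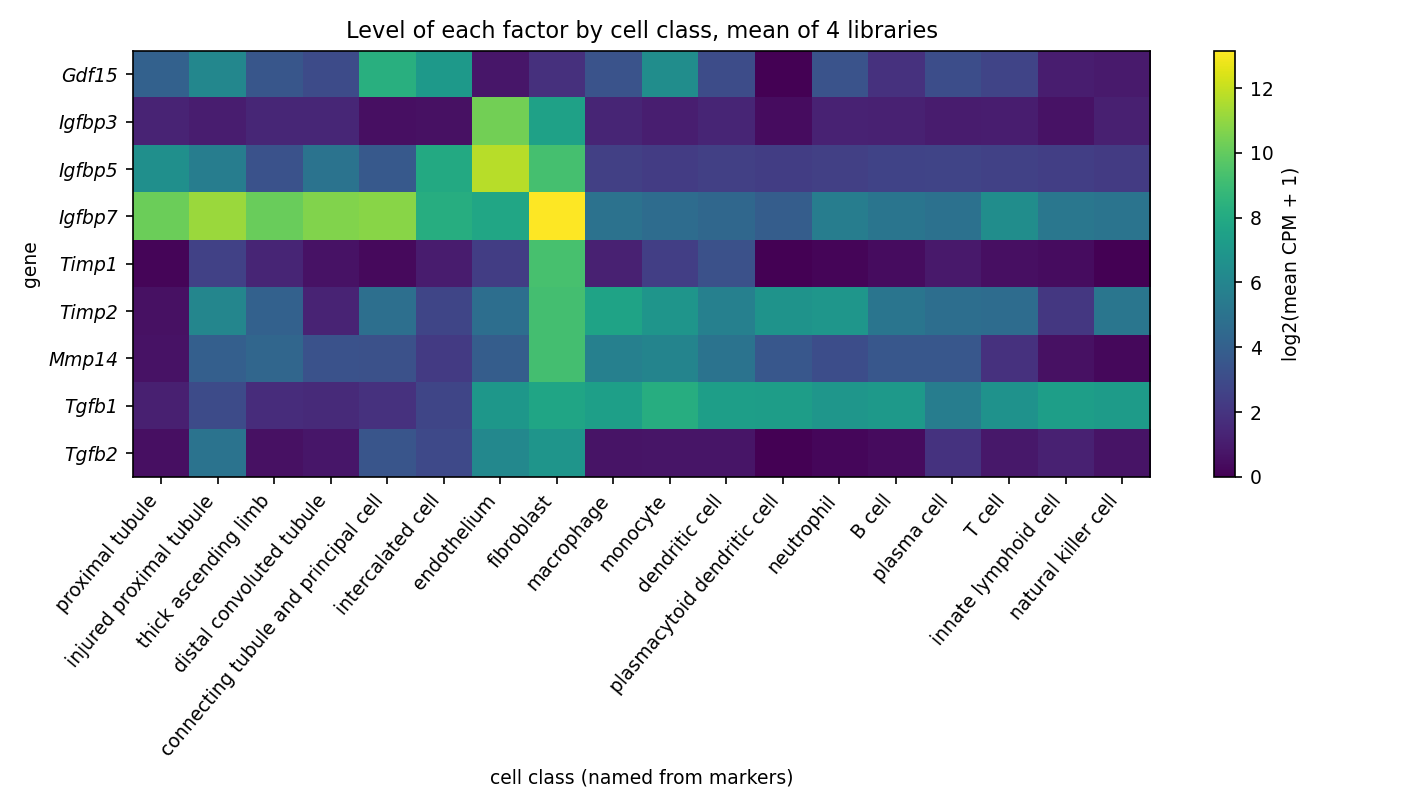
Level of the 9 genes (rows) in the 18 cell classes (columns), as log2 of the mean CPM over the 4 libraries plus 1. Fibroblasts held the highest level of Igfbp7, Timp1, Timp2, Mmp14 and Tgfb2, endothelium of Igfbp3 and Igfbp5, monocytes of Tgfb1 and principal cells of Gdf15.

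Of the insulin-like growth factor binding proteins, Igfbp3 had the narrowest source. In endothelium its level was 1116 and 1469.7 CPM under BPTES against 1181 and 1379 CPM under DMSO, and its share of all Igfbp3 UMIs was 81.4% and 85.1% under BPTES against 82.6% and 87.05% under DMSO (95% exact binomial intervals at most 1.40 percentage points wide; all such intervals cover counting error only). Among the 16 classes with at least 20 cells in each library, the next was thick ascending limb at a mean of 1.68 CPM, and its libraries (0.834 to 3.55 CPM) did not overlap those of endothelium (1116 to 1469.7 CPM). Outside endothelium and fibroblasts, Igfbp3 was at 0.0278% to 0.131% of its endothelial level. In proximal tubule that share was 0.115%, 2 of the 9 endothelial markers were at least as high there, and the median marker was at 0.0553%. Fibroblasts held 190.0 and 295 CPM under BPTES against 140.3 and 99.1 CPM under DMSO.

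Igfbp5 was also highest in endothelium, with 3915 and 3401 CPM under BPTES against 3475 and 2981 CPM under DMSO, but had a tubular source as well. The endothelial share of Igfbp5 UMIs was 73.7% and 57.5% under BPTES against 74.05% and 77% under DMSO, and that of proximal tubule was 21.7% and 36.7% under BPTES against 18.7% and 15% under DMSO. Fibroblasts came second in level, with 325 and 1132 CPM under BPTES against 758 and 287 CPM under DMSO, and did not overlap endothelium. They overlapped intercalated cells, which secrete acid or base in the collecting duct, with 485 and 191 CPM under BPTES against 269 and 58.8 CPM under DMSO. The libraries of intercalated cells overlapped those of proximal tubule, the class after them, and not those of endothelium. The levels in intercalated cells, proximal tubule and injured proximal tubule were 7.29%, 2.7% and 1.36% of the endothelial level, and all 9 endothelial markers were at a lower percentage in each of these classes. Endothelial cluster c3, the cluster with the highest Igfbp3 and Igfbp5 levels, had 1720.3 CPM of Igfbp3 and 4293 CPM of Igfbp5 over the 4 libraries.

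Igfbp7 was spread over the nephron. Fibroblasts held 7955 and 9981 CPM under BPTES against 9085 and 9426 CPM under DMSO, the highest level of any class. At clustering resolution 2 a thin limb class of 20 cells, which resolution 1 did not separate, stood higher, at 16175 and 15361 CPM under BPTES against 16289 and 31265 CPM under DMSO. It held 4 and 4 cells under BPTES against 11 and 1 under DMSO, so the DMSO 2 value is that of 1 cell. Psca, listed as a urothelium marker, was among its leading genes, so the name is weak. Proximal tubule, by far the most numerous class, had a share of 81.6% and 83.7% under BPTES against 69.7% and 50.5% under DMSO of the UMIs. The fibroblasts' share was 1.46% and 2.90% under BPTES against 6.36% and 24% under DMSO, and the highest share was that of DMSO 2, the library with 182 of these cells. Among the 16 larger classes, injured proximal tubule led with a mean of 2332 CPM and did not overlap the next class, principal cells (1798 CPM), which overlapped distal convoluted tubule (1641 CPM). Proximal tubule (1195 CPM) and thick ascending limb (1118 CPM) followed and overlapped each other. Intercalated cells (291 CPM) and endothelium (221 CPM) were lower than all of these and overlapped each other.

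**Figure D2:**
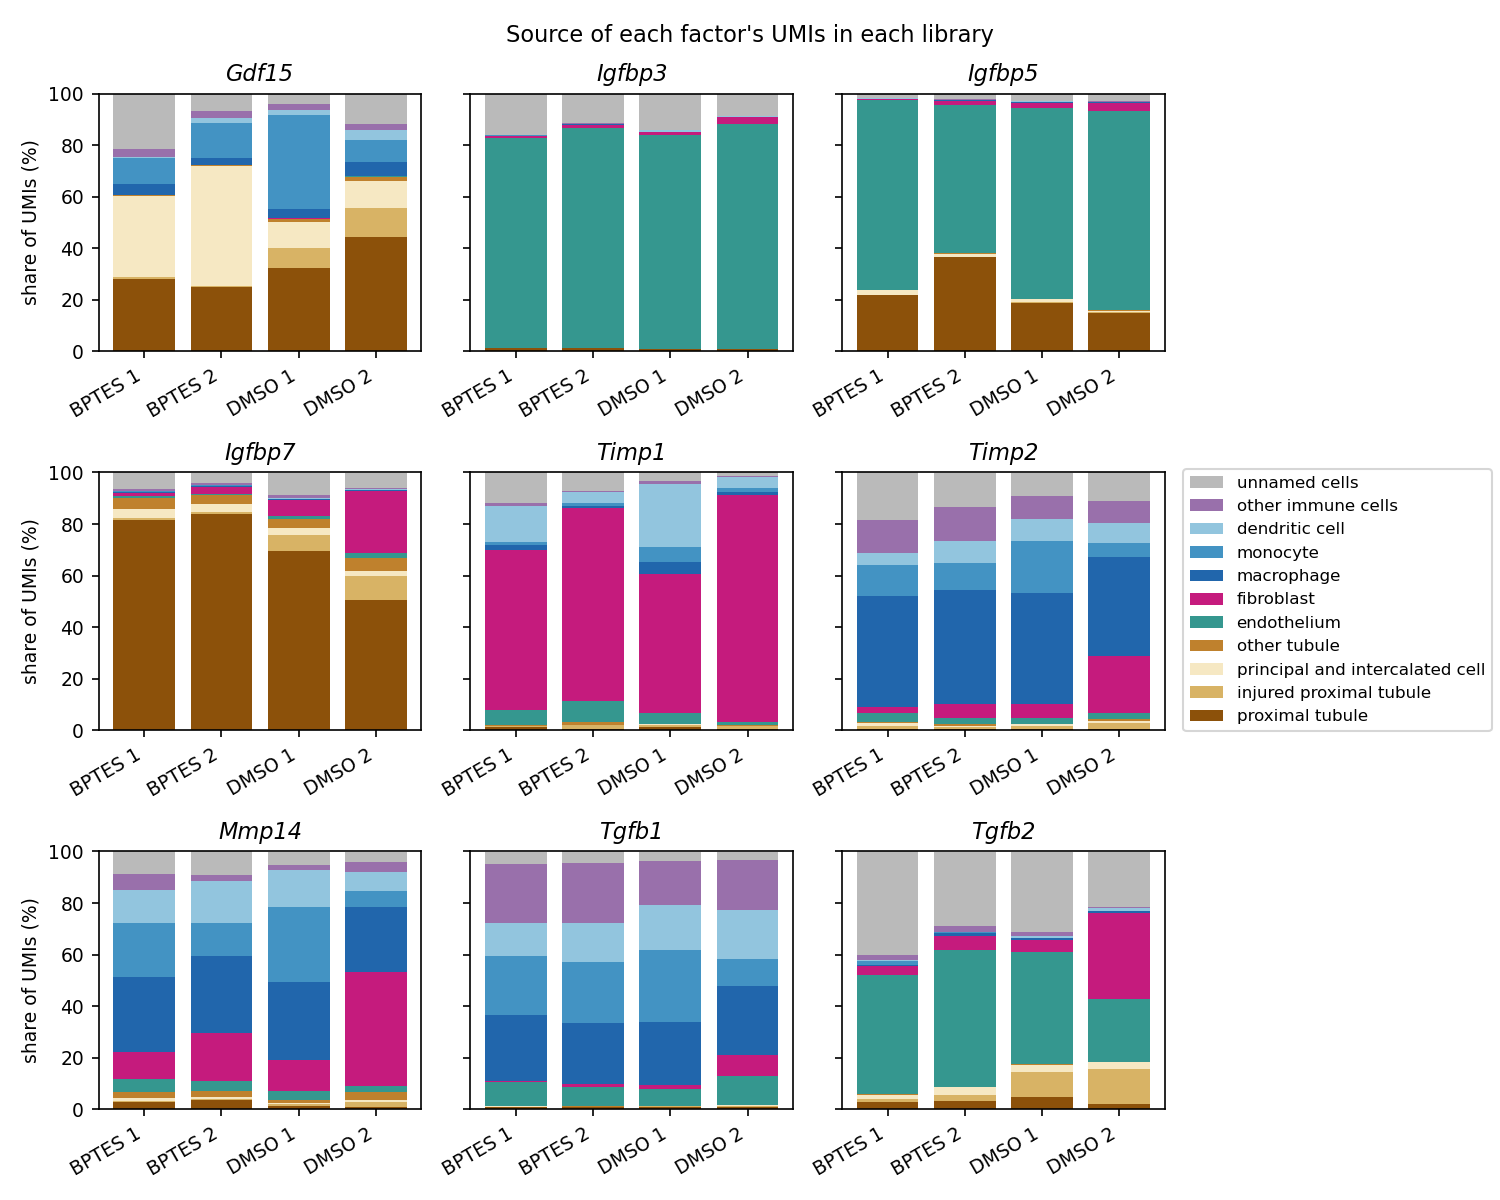
Share of each gene's UMIs (y axis, %) by cell class in each of the 4 libraries (x axis), unnamed cells included. Endothelium held 81.4% to 87.0% of Igfbp3 UMIs, fibroblasts 53.6% to 87.9% of Timp1 UMIs, and no single class held over 44.3% of Gdf15 UMIs in any library (principal and intercalated cells are drawn as 1 band).

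None of the binding proteins passed the edgeR test between BPTES and DMSO in any class (36 pairs of gene and class, 11 at an unadjusted p under 0.05; DESeq2 called 4). In 16 classes, summed UMIs per library were compared with edgeR's quasi-likelihood test and Benjamini-Hochberg adjustment over all genes of a class. Of 144 pairs of gene and class, 102 passed the low-count filter, 3 were lower under BPTES at an adjusted p under 0.05 and 0 were higher. Of the 3, Timp1 in macrophages, passed the low-count filter through its DMSO libraries only, so it had to differ to be tested and its call is a description. Over all genes in these classes, 0.896% of tests passed, 0.475% lower and 0.421% higher. At an unadjusted p under 0.05 there were 36 of the 102 pairs, against 14.4% of all tests. In 32 pairs both BPTES libraries lay below both DMSO libraries, in 18 above, and 52 overlapped, against 27.2% of all genes below and 19.4% above. Of the 102 pairs, 79 reached the level of the low-count filter in all 4 libraries. In 13 both DMSO libraries but not both BPTES libraries reached it, in 4 both BPTES libraries but not both DMSO libraries. In 6 it was reached by 1 library of each group. All 13 of the second kind had a negative log2 fold change, so the counts by direction are descriptions. The median log2 fold change of the 102 pairs was -0.14, with 39 positive and 63 negative, while the median over all genes lay between -0.02 and 0.01 in each class.

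Igfbp5 had a positive log2 fold change in 11 of the 14 classes where it could be tested. In 5 of them both BPTES libraries lay above both DMSO libraries, against 19.4% of all tests. Macrophages and B cells, among the 5, held 0.132% and 0.151% of its endothelial level, with 5 and 3 of the 9 endothelial markers at least as high. Monocytes and neutrophils, among the 11, held 0.12% and 0.137%, with 5 and 6 of the 9 markers at least as high. The part of endothelial RNA in these classes was not tested. In B cells, 1 of the 11, Igfbp5 passed the low-count filter through its BPTES libraries only, so the sign there was fixed by the filter. In neutrophils, also among the 11, the groups overlapped. Both BPTES libraries but not both DMSO libraries reached the filter level there, so that sign is a description. In injured proximal tubule it stood at 73.4 and 59.4 CPM under BPTES against 28.2 and 25.8 CPM under DMSO (log2 fold change 1.41 ± 0.24, adjusted p = 0.0951). In proximal tubule it stood at 95.4 and 125 CPM under BPTES against 72.5 and 78.7 CPM under DMSO (log2 fold change 0.64 ± 0.17, adjusted p = 0.138). Distal convoluted tubule had 27.4 and 52.4 CPM under BPTES against 23.5 and 21.3 CPM under DMSO (log2 fold change 0.95 ± 0.29, adjusted p = 0.177), and in endothelium the groups overlapped (log2 fold change 0.19 ± 0.10, adjusted p = 0.511). In all 3 tubular classes the groups were apart, and none of the differences passed the threshold. A fit with no low-count filter and a fit with the label numbers as a replicate block called Igfbp5 in all 3. DESeq2 called it in proximal tubule and injured proximal tubule. The distal convoluted tubule class was made up differently, with cluster c32 at 14.2% and 13.8% of its cells under BPTES against 25.7% and 44.8% under DMSO, and its median depth was 2273 and 1913 UMIs per cell against 2099 and 6808 UMIs; the part of either was not tested. Taken cluster by cluster, Igfbp5 rose in proximal tubule cluster c2, whose leading genes are mitochondrial, from 47.9 and 36.4 CPM under DMSO to 64.9 and 62.9 CPM under BPTES (log2 fold change 0.59 ± 0.13, adjusted p = 0.0280; 0.409% of all cluster tests passed). That call ended without BPTES 2 (adjusted p = 0.188), without DMSO 2 (adjusted p = 0.164) and with DESeq2 (adjusted p = 0.326).

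Igfbp7 lay above DMSO in both BPTES libraries in 8 of 16 classes and below in 2, where 19.4% of all tests lay above and 27.2% below. B cells, macrophages, monocytes and natural killer cells, among the 8, had means of 34.1, 30.5, 24.0 and 32.7 CPM. Proximal tubule had a mean of 1195 CPM, and the part of tubular RNA in the leukocyte values was not tested. Proximal tubule had 1256 and 1338 CPM under BPTES against 1002 and 1184 CPM under DMSO (log2 fold change 0.33 ± 0.14, adjusted p = 0.240), and B cells had 55.8 and 36.6 CPM under BPTES against 21.2 and 22.9 CPM under DMSO (log2 fold change 1.10 ± 0.23, adjusted p = 0.108). Endothelium was an exception with 153 and 138 CPM under BPTES against 208 and 387 CPM under DMSO (log2 fold change -1.03 ± 0.42, adjusted p = 0.529). The 6 fibroblast markers (Col1a1, Col1a2, Col3a1, Dcn, Pdgfra and Lum) summed to 1.67 and 1.20 CPM in BPTES endothelium and to 1.31 and 8.18 CPM in DMSO endothelium, 3 markers were at 0 in BPTES 2 and 1 in DMSO 1, and their part in this difference was not tested. In a pair of classes picked after their values had been seen, the endothelial log2 fold change minus the tubular one was -1.32 ± 0.21 (adjusted p = 0.0257), where 0.33% of all genes passed such a test, and it ended without BPTES 2 (adjusted p = 0.206). Igfbp3 overlapped between groups in each of the 6 classes tested, and its endothelial log2 fold change was 0.02 ± 0.15 (adjusted p = 0.973).

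Stromal cells were the exception for Igfbp3. Fibroblasts and cluster c40, unnamed cells led by the matrix gene Dcn, were summed after the data had been seen, giving 56 and 48 cells under BPTES against 76 and 287 cells under DMSO. Igfbp3 rose from 141 and 107 CPM under DMSO to 402 and 318 CPM under BPTES (log2 fold change 1.56 ± 0.21, adjusted p = 0.0415), where 0.687% of all genes passed. Timp2 stood at 957 and 792 CPM under BPTES against 521 and 520.0 CPM under DMSO without passing (log2 fold change 0.76 ± 0.16, adjusted p = 0.116). The related binding protein Igfbp6 had a log2 fold change of 2.90 in the same cells (adjusted p = 0.00311). Of these stromal cells 12 and 16 under BPTES against 34 and 182 under DMSO were fibroblasts and the rest c40, where the Igfbp6 level was the higher one: 907 and 991 CPM in c40 under BPTES against 167 and 337 CPM under DMSO, and 17.3 and 17.1 CPM in fibroblasts against 21.5 and 40.3 CPM. The part of this makeup in the Igfbp3 and Igfbp6 values was not tested. Fibroblasts made up 21.4% and 33.3% of these cells under BPTES against 44.7% and 63.4% under DMSO. Igfbp3 was at 504 and 335 CPM under BPTES against 141 and 154 CPM under DMSO in cluster c40 and at 190.0 and 295 CPM under BPTES against 140.3 and 99.1 CPM under DMSO in fibroblasts. A single c40 cell held 33.1% to 75.6% of the Igfbp3 UMIs of c40 in each library. The call ended without BPTES 1 (adjusted p = 0.234) and without BPTES 2 (adjusted p = 0.0852).

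Timp1, Timp2 and Mmp14 were all lower under BPTES in the sum of the CD45-positive classes, though not each of them within each class, and the 250 bases before their RefSeq start sites (GRCm38.p6) are shown for that reason, 5′ to 3′ on the gene's strand. Capitals mark the GC box (GGGCGG) and the CCAAT box (CCAAT), searched on both strands. The windows are chrX:20869916-20870165 (plus) for Timp1, chr11:118355412-118355661 (minus) for Timp2 and chr14:54431348-54431597 (plus) for Mmp14. The Timp2 window lies inside the span that GENCODE M21 gives the gene, whose start is farther upstream there.
Timp1: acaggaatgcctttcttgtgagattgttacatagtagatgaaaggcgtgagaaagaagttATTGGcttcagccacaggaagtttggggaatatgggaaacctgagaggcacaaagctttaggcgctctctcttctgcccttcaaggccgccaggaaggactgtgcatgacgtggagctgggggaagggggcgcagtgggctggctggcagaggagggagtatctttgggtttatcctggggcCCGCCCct
Timp2: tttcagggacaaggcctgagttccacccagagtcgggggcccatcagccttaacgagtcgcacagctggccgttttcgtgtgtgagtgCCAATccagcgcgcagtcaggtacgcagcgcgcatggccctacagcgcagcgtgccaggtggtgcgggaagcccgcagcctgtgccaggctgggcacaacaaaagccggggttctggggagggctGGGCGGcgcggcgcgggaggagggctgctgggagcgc
Mmp14: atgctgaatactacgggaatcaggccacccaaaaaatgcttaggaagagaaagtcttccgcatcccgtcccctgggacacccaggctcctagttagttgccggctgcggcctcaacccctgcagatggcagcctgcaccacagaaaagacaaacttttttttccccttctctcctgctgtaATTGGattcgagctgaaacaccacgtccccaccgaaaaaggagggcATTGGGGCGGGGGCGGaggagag
All 3 windows held both motifs. In Timp1 the GC box began 8 and the CCAAT box 190 bases before the start, and in Timp2 they began 37 and 162 bases before it. Mmp14 held 2 copies of each, and its CCAAT box 23 bases before the start shares its last base with the first GC box. Of 32851 RefSeq windows of this length, 32.7% held a GC box and 33.9% a CCAAT box. AP-1 sites (TGANTCA, in 6.75% of windows) and the TATA box (TATAAA, in 12.4%) were searched too, and these letters were not in the 3 windows. The same holds for the SMAD element (GTCTAGAC, in 0.167%), CRE (TGACGTCA, in 1.55%) and C/EBP-ATF element (TGATGCAA, in 0.79%).

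Mmp14, the membrane protease, was lower in leukocytes of both BPTES libraries. Over the sum of all CD45-positive classes it fell from 45.03 and 47.05 CPM under DMSO to 19.8 and 16.1 CPM under BPTES (log2 fold change -1.26 ± 0.09, adjusted p = 0.0168). In that sum 6.05% of all genes passed, 3.31% lower. Timp1 fell with it, from 4.27 and 5.79 CPM to 0.919 and 0.368 CPM (log2 fold change -2.86 ± 0.45, adjusted p = 0.0456), and Timp2 from 115 and 111 CPM to 84.1 and 76.3 CPM (log2 fold change -0.40 ± 0.05, adjusted p = 0.0325). The sum was made up differently in the groups: plasma cells held 15.7% and 14.99% of its UMIs under BPTES against 1.18% and 3.26% under DMSO, and macrophages, monocytes and dendritic cells together 54.5% and 53.4% against 70.6% and 65.7%. Without the plasma cells all 3 genes still passed, where 5.37% of all genes did (Mmp14 log2 fold change -1.18, Timp1 -2.76, Timp2 -0.31, adjusted p = 0.0211, 0.0436 and 0.0427). Over macrophages, monocytes and dendritic cells alone, a sum taken after the data had been seen, 8.11% of all genes passed, 4.61% lower. There Mmp14 (-1.04, adjusted p = 0.00699) and Timp1 (-2.64, adjusted p = 0.0327) passed and Timp2 did not, with 127 and 119 CPM under BPTES against 144 and 145 CPM under DMSO (-0.24, adjusted p = 0.0566). The part of the remaining shift between classes and clusters was not tested. The other 6 genes did not pass in the whole sum, and Igfbp5 came nearest with 5.03 and 5.36 CPM under BPTES against 4.15 and 4.09 CPM under DMSO (adjusted p = 0.0911). Without BPTES 1 or without BPTES 2 none of the 3 passed (Mmp14 adjusted p = 0.073 and 0.142), and Timp1 did not pass without DMSO 1 or DMSO 2 either (adjusted p = 0.0618 and 0.0786). With the label numbers as a replicate block only Mmp14 passed (adjusted p = 0.048, against 0.0792 for Timp1 and 0.0563 for Timp2).

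Within classes, Mmp14 had a negative log2 fold change in each of the 13 classes where it could be tested. In 9 of them both BPTES libraries lay below both DMSO libraries, against 27.2% of all tests. In 3 of the 13, B cells, plasma cells and neutrophils, both DMSO libraries but not both BPTES libraries reached the level of the low-count filter. The sign in these 3 is therefore no evidence of direction. Dendritic cells passed, where 3.07% of all genes passed and 1.66% were lower: Mmp14 fell from 38.2 and 35.99 CPM under DMSO to 25.2 and 26.7 CPM under BPTES (log2 fold change -0.52 ± 0.09, adjusted p = 0.0393). The larger difference in macrophages, 32.1 and 33.6 CPM under BPTES against 59.2 and 80.2 CPM under DMSO, did not pass (log2 fold change -1.09 ± 0.16, adjusted p = 0.0521), but 7 of 11 alternatives called it (adjusted p 5.57e-07 to 0.368 over all 11): DESeq2, no low-count filter, the 25% mitochondrial limit, doublets kept, resolution 2, and leaving out either DMSO library. Monocytes had 42.1 and 23.7 CPM under BPTES against 95.9 and 82.7 CPM under DMSO (log2 fold change -1.42 ± 0.28, adjusted p = 0.0663), and endothelium 10.3 and 11.3 CPM under BPTES against 17.7 and 15.1 CPM under DMSO (log2 fold change -0.60 ± 0.17, adjusted p = 0.154). The share of Mmp14 UMIs in macrophages was 29.04% and 30.2% under BPTES against 30.03% and 25.4% under DMSO, and that in fibroblasts was 10.3% and 18.3% under BPTES against 12.1% and 43.9% under DMSO. Fibroblasts, the class with the highest level, stood at 619 and 640.0 CPM under BPTES against 515 and 602 CPM under DMSO, with both BPTES libraries the higher ones. Macrophages, monocytes and dendritic cells held 8.63%, 10.3% and 5.31% of the fibroblast level of Mmp14, while none of the 6 fibroblast markers exceeded 0.097% of its own fibroblast level in these classes.

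The call in dendritic cells ended without BPTES 1, BPTES 2 or DMSO 1 (adjusted p = 0.137, 0.121 and 0.0721), with doublets kept (adjusted p = 0.0513) and at clustering resolution 2, where the log2 fold change was -0.12 (adjusted p = 0.602). The class was made up differently: cluster c12 held 63.4% and 60.6% of dendritic cells under BPTES against 83.0% and 71.2% under DMSO, and within c12 Mmp14 did not pass (23.4 and 26.98 CPM under BPTES against 39.8 and 40.01 CPM under DMSO; log2 fold change -0.67 ± 0.12, adjusted p = 0.0600).

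Macrophages passed when their clusters were taken 1 by 1, a split made after the data had been seen. Among 221 tested pairs of gene and cluster, 6 passed, 5 lower and 1 higher, where 0.409% of all tests passed. In macrophage cluster c16, led by C1qa, C1qb and C1qc, Mmp14 fell from 55.3 and 68.9 CPM under DMSO to 30.3 and 30.2 CPM under BPTES (log2 fold change -1.05 ± 0.13, adjusted p = 0.00587), and this call held when any 1 library was left out (adjusted p 0.000912 to 0.0274). Macrophage cluster c4 passed as well, with 37.3 and 38.2 CPM under BPTES against 69.4 and 93.4 CPM under DMSO (log2 fold change -1.09 ± 0.16, adjusted p = 0.0425), though not without BPTES 1 or BPTES 2 (adjusted p = 0.181 and 0.273). B cells had 2.29 and 1.02 CPM under BPTES against 8.17 and 31.7 CPM under DMSO of Mmp14. There the makeup of the class moved with the groups: the small cluster c47 made up 1.68% and 1.32% of B cells under BPTES against 6.47% and 20.9% under DMSO. The leading genes of c47 were B cell genes such as Cd79a, and also Ccl8, which led macrophage cluster c41. At resolution 2 a cluster with the same leading genes had a median of 34602 UMIs per cell, against 12428 in the largest B cell cluster. Whether c47 held doublets of B cells and macrophages was not tested.

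**Figure D3:**
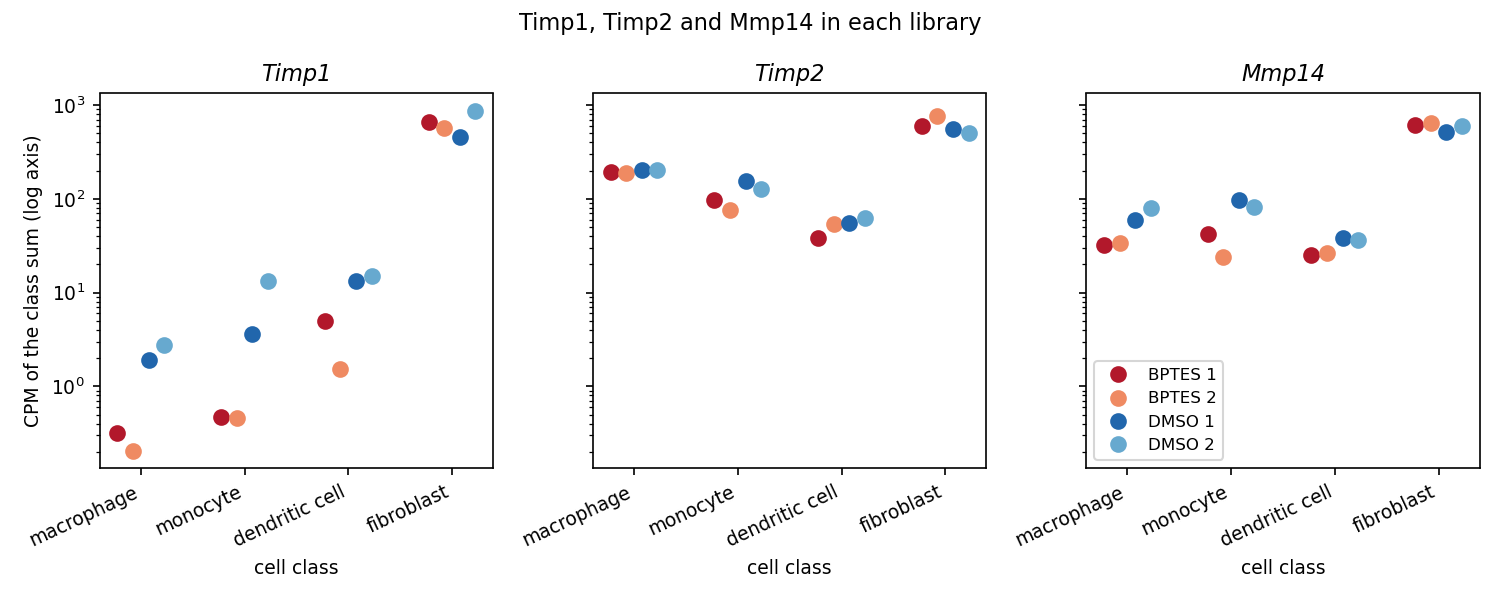
CPM (log axis) of Timp1, Timp2 and Mmp14 in each library for 4 cell classes, 1 point per library. In macrophages, monocytes and dendritic cells Timp1 and Mmp14 were lower in both BPTES libraries, and in fibroblasts, which held the highest levels, the groups overlapped for Timp1 and the BPTES libraries were the higher ones for Timp2 and Mmp14.

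Timp1 came mainly from fibroblasts, which held 62.2% and 75.0% of its UMIs under BPTES against 53.6% and 87.9% under DMSO (intervals at most 10.1 points wide). Its level per fibroblast sum was 659 and 572 CPM under BPTES against 452 and 874 CPM under DMSO, with overlapping groups. The UMIs in fibroblasts numbered 229 and 267 under BPTES against 506 and 5372 under DMSO, and a single cell of DMSO 2 held 1414 of them (26.3%). In the sum of CD45-negative classes, where 0 of 18224 genes passed (2467 at an unadjusted p under 0.05; DESeq2 called 633 of 16457), Timp1 stood at 1.79 and 2.67 CPM under BPTES against 4.25 and 38.03 CPM under DMSO. With the fibroblasts taken out it stood at 0.201 and 0.349 CPM under BPTES against 0.487 and 1.49 CPM under DMSO. Among the larger classes, dendritic cells came first with 4.95 and 1.52 CPM under BPTES against 13.1 and 14.98 CPM under DMSO, and they overlapped injured proximal tubule (4.74 CPM), which overlapped monocytes (4.42 CPM) and these endothelium (4.21 CPM).

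In macrophages, Timp1 stood at 0.318 and 0.204 CPM under BPTES against 1.91 and 2.74 CPM under DMSO (log2 fold change -3.11 ± 0.44, adjusted p = 0.0428), where 1.22% of all genes passed and 0.922% were lower. No BPTES library reached the level of the low-count filter. This rests on few molecules: 6 and 3 UMIs in 4 and 3 cells under BPTES against 46 and 73 UMIs in 31 and 34 cells under DMSO, so that the gene entered the test through the DMSO libraries. Fibroblast markers moved in the same direction: the 6 markers summed to 2.75 and 2.51 CPM in BPTES macrophages and to 4.64 and 8.73 CPM in DMSO macrophages, and Lum was at 0 in both BPTES libraries. In DMSO 1 the Timp1 level of macrophages was 0.421% of that of fibroblasts, above all 6 markers (median 0.0538%), and in DMSO 2 it was 0.313%, above 5 of 6 (median 0.117%). The cells were shallower under BPTES as well, with medians of 15915 and 15048 UMIs per macrophage against 17582 and 21015. The part of fibroblast RNA and of depth in this difference was not tested. The call ended without BPTES 1 (adjusted p = 0.234), without BPTES 2 (adjusted p = 0.368), with the replicate block (adjusted p = 0.124) and at clustering resolution 2 (adjusted p = 0.0521).

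Timp1 was also lower in both BPTES libraries of dendritic cells and of monocytes, without passing. Dendritic cells stood at 4.95 and 1.52 CPM under BPTES against 13.1 and 14.98 CPM under DMSO (log2 fold change -2.12 ± 0.43, adjusted p = 0.0753), from 51 and 15 UMIs under BPTES against 233 and 263 under DMSO. Monocytes stood at 0.474 and 0.456 CPM under BPTES against 3.63 and 13.1 CPM under DMSO (log2 fold change -4.05 ± 0.86, adjusted p = 0.0619), and 1 cell held 55 of the 79 UMIs of DMSO 2. As in macrophages, no BPTES library of monocytes reached the level of the low-count filter, so the direction there was fixed by the filter. In endothelium the groups overlapped (log2 fold change -0.63 ± 0.38, adjusted p = 0.551).

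Timp2 was highest in fibroblasts (596 and 759.9 CPM under BPTES against 556 and 508 CPM under DMSO), and among the larger classes in macrophages, with 192 and 188 CPM under BPTES against 203 and 203 CPM under DMSO. Their share of its UMIs was 42.9% and 44.1% under BPTES against 43.2% and 38.4% under DMSO, and in level they did not overlap the next class, neutrophils (118 CPM), which overlapped monocytes (114 CPM). In monocytes, where 5.92% of all genes passed and 2.49% were lower, Timp2 fell from 155 and 126 CPM under DMSO to 96.5 and 76.1 CPM under BPTES (log2 fold change -0.69 ± 0.14, adjusted p = 0.0406). The class held 2 clusters in different proportions: c17, with 138 and 108 CPM under BPTES against 187 and 158 CPM under DMSO, made up 46.6% and 51.6% of BPTES monocytes and 64.6% and 60.0% of DMSO monocytes, and c19, with 20.8 and 13.4 CPM under BPTES against 21.6 and 9.98 CPM under DMSO, made up the rest. Within c17 the difference did not pass (log2 fold change -0.45 ± 0.14, adjusted p = 0.179), and in c19 the groups overlapped. Cd5l was among the leading genes of c17. At clustering resolution 2 a cluster led by Cd5l, Fcna and Spic was named macrophage. It held 55 and 19 cells under BPTES against 142 and 27 cells under DMSO. The part of such cells in the monocyte values of Timp2 and of other genes was not tested. At clustering resolution 2 the log2 fold change in monocytes was 0.288 (adjusted p = 0.326), and without BPTES 1, BPTES 2 or DMSO 1 the call ended (adjusted p = 0.0932, 0.182 and 0.0898).

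In macrophages Timp2 differed little (192 and 188 CPM under BPTES against 203 and 203 CPM under DMSO; log2 fold change -0.10 ± 0.07, adjusted p = 0.399), and in injured proximal tubule it was higher under BPTES. There it stood at 136 and 64.5 CPM under BPTES against 25.5 and 37.2 CPM under DMSO (log2 fold change 1.78 ± 0.31, adjusted p = 0.0975). Few cells carried it: 6 of 33 and 4 of 27 cells under BPTES, and 1 cell held 56.2% and 73.7% of the UMIs in these 2 libraries. The log2 fold change there minus that in monocytes, again a pair picked after its values had been seen, was 2.22 ± 0.33 (adjusted p = 0.0191), where 0.559% of all genes passed, and the call ended without BPTES 1 (adjusted p = 0.102).

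Of the transforming growth factors, Tgfb1 was the most even across libraries. Monocytes led with 292 and 284 CPM under BPTES against 301 and 284 CPM under DMSO, and their libraries did not overlap those of the next class, fibroblasts (215 CPM), which overlapped macrophages (168 CPM). Innate lymphoid cells (168 CPM) and dendritic cells (165 CPM) overlapped with macrophages, and endothelium had 125 CPM. The macrophages' share of the UMIs was 25.7% and 23.7% under BPTES against 24.3% and 26.6% under DMSO. The log2 fold change was 0.00 ± 0.09 (adjusted p = 0.999) in monocytes, 0.01 ± 0.07 (adjusted p = 0.967) in dendritic cells and 0.15 ± 0.07 (adjusted p = 0.244) in macrophages. Natural killer cells had the smallest adjusted p of its 13 classes, with 111 and 129 CPM under BPTES against 206 and 138 CPM under DMSO (log2 fold change -0.58 ± 0.16, adjusted p = 0.0920), and did not pass.

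Tgfb2 had a vascular and stromal source. Fibroblasts stood at 176 and 118 CPM under BPTES against 49.2 and 123 CPM under DMSO and endothelium at 86.1 and 91.01 CPM under BPTES against 59.7 and 39.97 CPM under DMSO. The endothelial share of the UMIs was 46.5% and 52.9% under BPTES against 43.7% and 24.5% under DMSO, and that of unnamed cells 40.2% and 28.8% under BPTES against 31.2% and 21.4% under DMSO. Among the unnamed cells was cluster c26, described at the end, which carried all the endothelial markers. Fibroblasts had a share of 3.23% and 5.49% under BPTES against 4.38% and 33.2% under DMSO, again highest in DMSO 2. Injured proximal tubule (31.1 CPM) came next among the larger classes without overlapping endothelium or principal cells (10.1 CPM), and proximal tubule had under 0.6 CPM in each library (0.446 and 0.338 CPM under BPTES, 0.530 and 0.486 CPM under DMSO). In endothelium both BPTES libraries lay above both DMSO libraries without passing (log2 fold change 0.85 ± 0.20, adjusted p = 0.210). Of 11 alternatives 4 called it (adjusted p 6.05e-14 to 0.519 over all 11): DESeq2, no low-count filter, resolution 2, and leaving out DMSO 1. Endothelial cluster c42, led by Plat and Ehd3, had 372 and 339 CPM under BPTES against 185 and 260.5 CPM under DMSO (log2 fold change 0.66 ± 0.18, adjusted p = 0.338).

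Gdf15 had no single source. The share of its UMIs in proximal tubule was 27.97% and 24.8% under BPTES against 32.4% and 44.3% under DMSO. That in principal cells was 26.2% and 29.2% under BPTES against 9.60% and 9.56% under DMSO, and that in monocytes 10.2% and 13.7% under BPTES against 36.3% and 8.36% under DMSO. Connecting tubule and principal cells, which take up sodium and water in the collecting system, had the highest level, with 293 and 487 CPM under BPTES against 282 and 204 CPM under DMSO. They overlapped intercalated cells (86.4 and 410.0 CPM under BPTES against 12.04 and 19.8 CPM under DMSO), and these overlapped monocytes (32.5 and 60.8 CPM under BPTES against 162 and 87.03 CPM under DMSO), which overlapped injured proximal tubule. Proximal tubule came after these, overlapping intercalated cells and not injured proximal tubule.

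In the high classes a few cells carried most Gdf15. In principal cells, 34 of 104, 38 of 92, 29 of 84 and 28 of 127 cells had a UMI in BPTES 1, BPTES 2, DMSO 1 and DMSO 2, and the 5 highest cells held 80.5%, 63.5%, 84.1% and 78.0% of the UMIs. In intercalated cells, 4, 5, 5 and 3 cells held all of it, with 253 of the 669 UMIs of BPTES 2 in 1 cell. In proximal tubule, at 4.997% of the principal cell level, it lay in more cells: 460 of 5691 and 436 of 5420 cells had a UMI under BPTES against 923 of 5524 and 864 of 4769 under DMSO. These are 8.08% and 8.04% against 16.7% and 18.1% of cells, at median depths of 15008 to 17946 UMIs per cell. In cells thinned to 1000 UMIs the shares were 0.576% and 0.584% against 1.52% and 1.88%, with 109 to 207 shallower cells left out per library. All 7 principal cell markers were at a lower percentage in proximal tubule (median 0.0181%, highest 1.15%). As a background share, in endothelium, which held under 1 CPM of Gdf15, 0.468% to 1.05% of cells had a UMI at median depths of 10815 to 13032 UMIs. After thinning, 0 of 511 to 1001 endothelial cells per library had one, which at that depth of 1000 UMIs allows a share of up to 0.3% to 0.587% of such thinned cells.

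**Figure D4:**
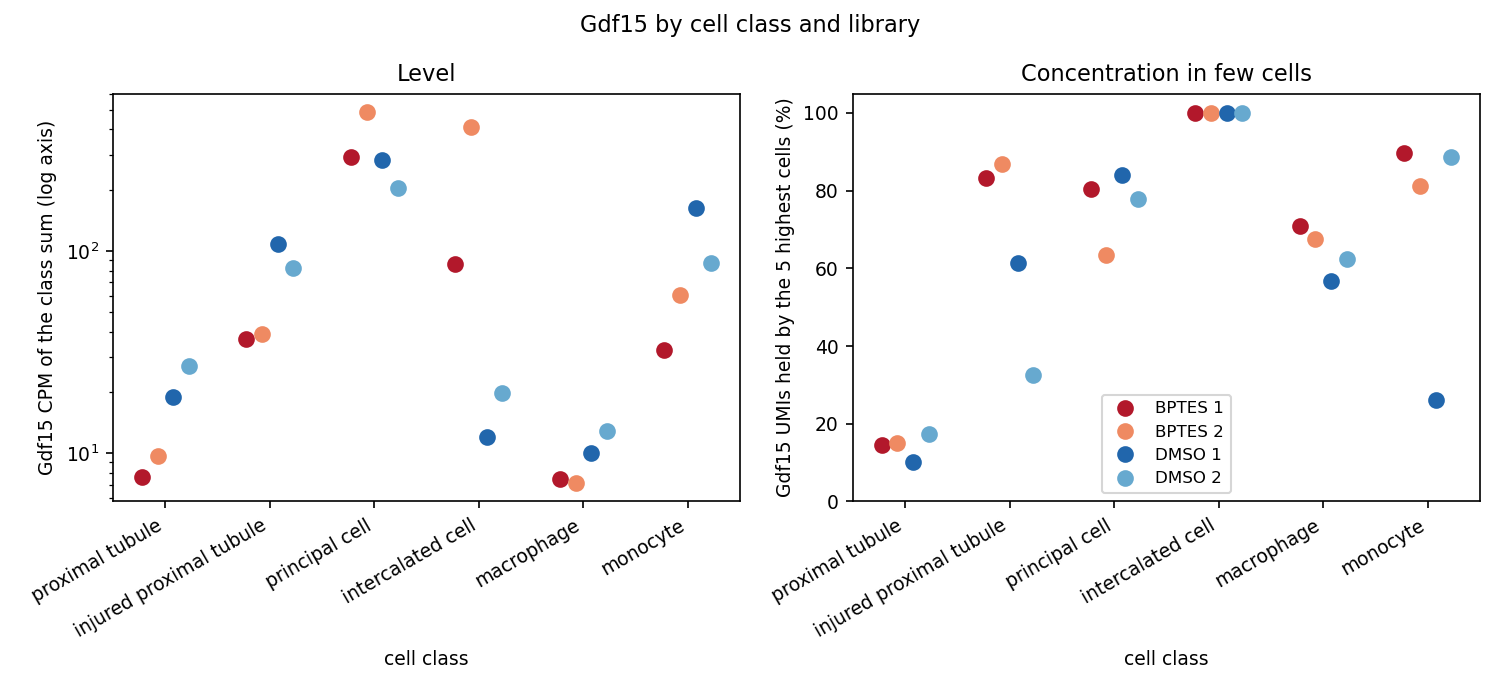
Gdf15 in 6 cell classes, 1 point per library: CPM on a log axis (left) and the share of the class's Gdf15 UMIs held by its 5 highest cells (right, %). Proximal tubule, injured proximal tubule, macrophages and monocytes were lower in both BPTES libraries, and principal and intercalated cells, where 5 cells held 63.5% to 100% of the UMIs, were higher.

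Gdf15 went in both directions between the groups, and no class passed with edgeR (7 of 12 at an unadjusted p under 0.05; DESeq2 called 2, proximal tubule and intercalated cells). Of 12 classes tested, both BPTES libraries lay below both DMSO libraries in 7 and above in 2. Of all tests, 27.2% lay below and 19.4% above. Dendritic cells and thick ascending limb, among the 7, and neutrophils, where the groups overlapped, entered the test differently. There both DMSO libraries but not both BPTES libraries reached the level of the low-count filter. The filter therefore favoured a lower value under BPTES, and the direction in these classes is a description. Proximal tubule stood at 7.64 and 9.64 CPM under BPTES against 19.01 and 26.99 CPM under DMSO (log2 fold change -1.33 ± 0.24, adjusted p = 0.101), injured proximal tubule at 36.7 and 39.04 CPM under BPTES against 109 and 82.2 CPM under DMSO (log2 fold change -1.23 ± 0.27, adjusted p = 0.182) and macrophages at 7.46 and 7.14 CPM under BPTES against 9.98 and 12.9 CPM under DMSO (log2 fold change -0.65 ± 0.17, adjusted p = 0.0853). Principal cells (log2 fold change 0.72 ± 0.30, adjusted p = 0.416) and intercalated cells (log2 fold change 4.02 ± 1.16, adjusted p = 0.575) were the 2 classes with higher BPTES libraries, and both rest on the few cells named above. Cluster by cluster, Gdf15 fell under BPTES in proximal tubule cluster c1, from 16.8 and 17.4 CPM to 7.38 and 8.40 CPM (log2 fold change -1.07 ± 0.12, adjusted p = 0.0162). It also fell in proximal tubule cluster c20 (log2 fold change -1.48 ± 0.31, adjusted p = 0.0265) and macrophage cluster c4 (log2 fold change -1.32 ± 0.21, adjusted p = 0.0401). The call in c1 ended without BPTES 2 (adjusted p = 0.0762), that in c20 without DMSO 1 (adjusted p = 0.0597), and that in c4 without BPTES 1, BPTES 2 or DMSO 2 (adjusted p = 0.108, 0.169 and 0.0629).

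Genes that respond to tissue digestion were counted beside these values, since Gdf15 responds to stress. The 10 dissociation genes summed to 138 and 155 CPM in BPTES proximal tubule and to 196 and 253 CPM in DMSO proximal tubule, so they were lower in both BPTES libraries, as Gdf15 was. In thick ascending limb the sum was 445 and 571 CPM under BPTES against 1054 and 1084 CPM under DMSO, and in endothelium 2803 and 3457 CPM against 3655 and 4817 CPM, the same direction. In macrophages the same sum was 4432 and 4447 CPM under BPTES against 3782 and 3886 CPM under DMSO, the opposite direction to Gdf15. Over the 16 classes the dissociation genes gave 4 higher and 9 lower calls in 160 tests, 8.13% against 0.896% of all genes. Of the lower calls, 4 lay in natural killer cells, those of Dusp1, Fos and Ier2 among them. Egr1, Ier2 and Junb were lower in thick ascending limb, Egr1 in endothelium and Junb in proximal tubule. The higher calls were Hspa1a, Hspa1b and Dnajb1 in monocytes and Dnajb1 in dendritic cells. Hspa1b in monocytes stood at 488 and 453 CPM under BPTES against 215 and 245 CPM under DMSO. The part of such genes in the monocyte and dendritic cell values, those of Timp2 and Mmp14 included, was not tested. The mitochondrial share of UMIs moved with the groups as well. Its median per cell was 15.8% and 21.3% in BPTES proximal tubule against 11.9% and 15.5% in DMSO, 11.0% and 15.4% against 8.76% and 6.77% in injured proximal tubule, and 11.8% and 12.1% against 6.39% and 8.43% in thick ascending limb. The part of either in the values of Gdf15 and of the other genes in these classes was not tested. Such genes are Atf3 and Spp1 in thick ascending limb, Atf3 in distal convoluted tubule, Serpine2 and Mmp11 in endothelium, and Tgfbr1 in natural killer cells.

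**Figure D5:**
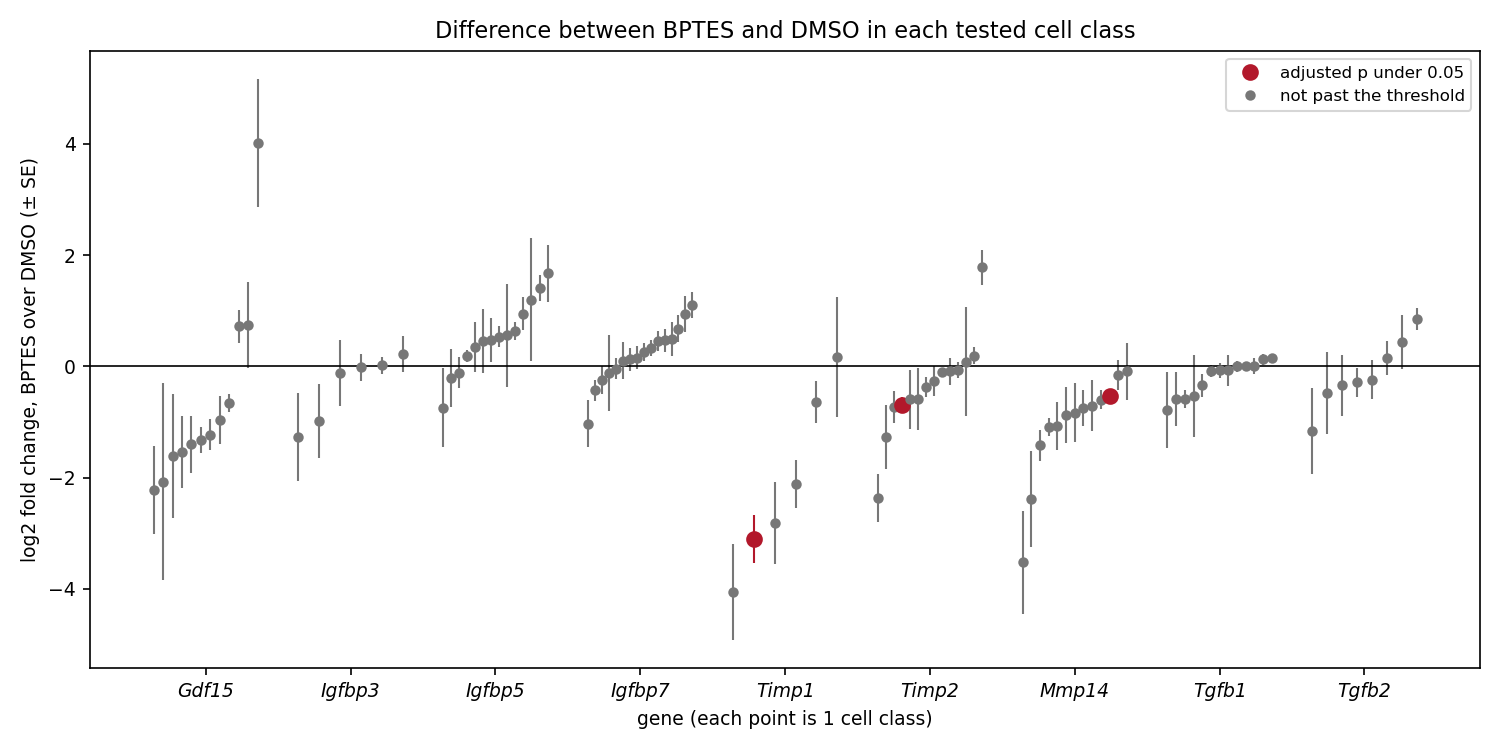
Log2 fold change of BPTES over DMSO (y axis, with standard error) for the 102 tested pairs of gene and cell class, grouped by gene (x axis). The 3 larger red points passed an adjusted p of 0.05, all lower under BPTES. They are Timp2 in monocytes, Timp1 in macrophages (tested through its DMSO libraries only) and Mmp14 in dendritic cells. All 13 Mmp14 points lie below 0. For 3 of them both DMSO libraries but not both BPTES libraries reached the level of the low-count filter.

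Of 12 listed genes of the stress response upstream of Gdf15 and of its receptors, 0 rose and 5 pairs of gene and class fell in 138 tests, 3.62% against 0.896% of all genes called in either direction. Part of the calls on this and the following lists lay in monocytes and dendritic cells, where 5.92% and 3.07% of all genes passed: 2 of 5 here, 1 of 2 in the insulin-like growth factor axis, 3 of 7 in the transforming growth factor pathway, 3 of 5 among proteases and inhibitors, and 5 of 12 among other secreted factors. The clusters of both classes held different shares of the cells in the groups, as given above for Timp2 and Mmp14, and the part of this in these calls was not tested. Proximal tubule was made up differently too. Its cluster c2 held 15.6% and 21.0% of the cells under BPTES against 12.1% and 11.7% under DMSO, and c6 held 7.47% and 7.58% against 12.4% and 13.1%. The part of this in the proximal tubule values, those of the 9 factors included, was not tested. Cdkn1a, the p53 target that blocks the cell cycle, fell in proximal tubule (10.7 and 7.04 CPM under BPTES, 21.4 and 19.8 CPM under DMSO, log2 fold change -1.14) and in dendritic cells (132 and 125 CPM under BPTES, 172 and 193 CPM under DMSO, log2 fold change -0.51). Atf3, a stress-induced transcription factor, fell in thick ascending limb (10.01 and 14.2 CPM under BPTES, 52.1 and 62.3 CPM under DMSO, log2 fold change -2.11) and in distal convoluted tubule (5.33 and 5.19 CPM under BPTES, 17.4 and 25.5 CPM under DMSO, log2 fold change -1.93), the class whose makeup and depth moved with the groups. Sesn2 fell in dendritic cells (15.1 and 11.8 CPM under BPTES, 22.3 and 22.3 CPM under DMSO, log2 fold change -0.74). In the sum of CD45-positive classes Chac1, a target of the integrated stress response, rose (128 and 125 UMIs under BPTES against 64 and 64 under DMSO, log2 fold change 1.30), but no single class called it. Plasma cells, whose share of the sum moved with the groups, had the second highest level (5.79 CPM, after neutrophils), and without them Chac1 did not pass (log2 fold change 1.00, adjusted p = 0.0662). The immediate early gene Egr1 also fell in thick ascending limb (27.9 and 18.9 CPM under BPTES, 86.6 and 125 CPM under DMSO, log2 fold change -2.00), where Junb and Ier2 did too. Of Gfral, the receptor of Gdf15, 2 UMIs were counted in all kept cells.

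In the insulin-like growth factor axis (15 genes), 127 tests gave 0 higher and 2 lower calls, 1.57% against 0.896% of all genes. The binding protein Igfbp6 fell in monocytes (1.23 and 2.51 CPM under BPTES, 7.95 and 6.14 CPM under DMSO, log2 fold change -1.92), and the receptor adaptor Irs2 in proximal tubule (10.9 and 10.5 CPM under BPTES, 18.5 and 18.4 CPM under DMSO, log2 fold change -0.70). In the sum of CD45-positive classes the ligand Igf1 fell (20.4 and 20.04 CPM under BPTES, 56.8 and 47.01 CPM under DMSO, log2 fold change -1.26), as Igfbp6 did (1.85 and 2.75 CPM under BPTES, 7.72 and 9.99 CPM under DMSO, log2 fold change -1.85), and the receptor Igf1r rose (148 and 133 CPM under BPTES, 110.0 and 109 CPM under DMSO, log2 fold change 0.45). All 3 passed as well without plasma cells and over macrophages, monocytes and dendritic cells alone (adjusted p 0.0173 to 0.0444).

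Among 34 genes of the transforming growth factor pathway, 360 tests gave 4 higher and 3 lower calls, 1.94% against 0.896% of all genes. Of the lower calls, Ltbp1 in thick ascending limb had passed the low-count filter through its DMSO libraries only and had to differ (0 and 2 UMIs under BPTES against 25 and 71 under DMSO). Thbs1, which can activate the latent factors, rose in injured proximal tubule (70.4 and 61.1 CPM under BPTES, 11.8 and 15.7 CPM under DMSO, log2 fold change 2.36). This rests on 46 and 36 UMIs in 33 and 27 cells under BPTES, against 56 and 136 UMIs under DMSO. Cluster c43 made up 21.2% and 25.9% of that class under BPTES against 26.2% and 51.7% under DMSO. The part of this in the injured proximal tubule values, those of the 9 factors included, was not tested. The highest Thbs1 level was that of neutrophils, at a mean of 774 CPM. The receptor Tgfbr1 rose in natural killer cells (137 and 162 CPM under BPTES, 106 and 75.8 CPM under DMSO, log2 fold change 0.65). The signal transducer Smad4 rose in monocytes (99.5 and 103 CPM under BPTES, 76.1 and 74.7 CPM under DMSO, log2 fold change 0.45) and the ubiquitin ligase Smurf2 in dendritic cells (103 and 98.97 CPM under BPTES, 78.4 and 80.8 CPM under DMSO, log2 fold change 0.33). The latent-factor binding protein Ltbp3 fell in dendritic cells (2.33 and 2.33 CPM under BPTES, 5.75 and 8.71 CPM under DMSO, log2 fold change -1.64), and the induced matrix protein Tgfbi in B cells (13 and 14.6 CPM under BPTES, 59.6 and 89.5 CPM under DMSO, log2 fold change -2.42). The share of cluster c47 among B cells, given above for Mmp14, was lower under BPTES too, and its part was not tested. In the CD45-positive sum the matrix protein Fn1 rose (172 and 144 CPM under BPTES, 97.6 and 99.7 CPM under DMSO, log2 fold change 0.78), as did Smurf2 (117 and 116 CPM under BPTES, 104 and 103 CPM under DMSO, log2 fold change 0.26), and both passed in the 2 smaller sums too (adjusted p 0.00831 to 0.0446).

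The 27 listed matrix proteases, inhibitors and partners gave 2 higher and 3 lower calls in 161 tests, 3.11% against 0.896% of all genes. Timp3, an inhibitor that binds to the matrix, rose in macrophages (25.5 and 27.6 CPM under BPTES, 13.8 and 15.1 CPM under DMSO, log2 fold change 0.87) and in monocytes (27.5 and 23.8 CPM under BPTES, 14.2 and 16.6 CPM under DMSO, log2 fold change 0.77). Cd63, a membrane protein that binds Timp1, fell in monocytes (81.4 and 69.9 CPM under BPTES, 230.3 and 267 CPM under DMSO, log2 fold change -1.69) and in dendritic cells (43.4 and 49.1 CPM under BPTES, 100.5 and 129 CPM under DMSO, log2 fold change -1.32). Mmp11 fell in endothelium (36.8 and 31.9 CPM under BPTES, 57.5 and 70.5 CPM under DMSO, log2 fold change -0.89). In the CD45-positive sum the sheddase Adam17 fell (7654 and 6125 UMIs under BPTES against 10456 and 10229 under DMSO, log2 fold change -0.28), and Mmp10, tested through its DMSO libraries only, had 3 and 2 UMIs under BPTES against 21 and 24 under DMSO. Without plasma cells neither passed (adjusted p = 0.0719 for Adam17 and 0.0657 for Mmp10).

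The 32 other secreted senescence factors on the list gave 2 higher and 10 lower calls in 301 tests, 3.99% against 0.896% of all genes. Of the 10, 3 reached the level of the low-count filter in both DMSO libraries but not in both BPTES libraries, so their calls are descriptions: Bmp2 in natural killer cells, Plau in B cells and Cxcl1 in proximal tubule. The chemokine Ccl2 fell in macrophages (35.5 and 27.3 CPM under BPTES, 121 and 171 CPM under DMSO, log2 fold change -2.22), and the cytokine Il1a in monocytes (2.85 and 1.37 CPM under BPTES, 28.3 and 43.3 CPM under DMSO, log2 fold change -4.01). Cxcl1, a neutrophil attractant, fell in monocytes (1.80 and 1.59 CPM under BPTES, 5.07 and 10.5 CPM under DMSO, log2 fold change -2.12) and stood at 10 and 14 UMIs under BPTES against 103 and 103 UMIs under DMSO in proximal tubule. Osteopontin (Spp1) fell in thick ascending limb (3932 and 2995 CPM under BPTES, 8415 and 12555 CPM under DMSO, log2 fold change -1.43), Serpine2 in endothelium (328 and 300.3 CPM under BPTES, 488 and 544 CPM under DMSO, log2 fold change -0.71), and Ccl5 and Bmp2 in dendritic cells (log2 fold changes -0.64 and -2.11). Bmp2 in natural killer cells had 0 and 1 UMIs under BPTES against 43 and 10 under DMSO, and Plau in B cells, where the share of c47 moved with the groups, had 14 and 7 UMIs against 58 and 120. The 2 higher calls were Csf1 in endothelium (129.7 and 127 CPM under BPTES, 88.3 and 91.8 CPM under DMSO, log2 fold change 0.52) and the receptor Tnfrsf1b in monocytes (350.2 and 358 CPM under BPTES, 263 and 259 CPM under DMSO, log2 fold change 0.46). In the CD45-positive sum the lysosomal protease Ctsb fell (568 and 516 CPM under BPTES, 1023 and 935 CPM under DMSO, log2 fold change -0.76) and the growth factor Areg rose (28.3 and 24.2 CPM under BPTES, 19.6 and 20.1 CPM under DMSO, log2 fold change 0.50). Both passed without plasma cells, but over macrophages, monocytes and dendritic cells alone Areg had a log2 fold change of -0.56 (adjusted p = 0.306).

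For each factor, the 2 genes with the most similar pattern of level over the 16 larger classes were found among 8040 genes (Pearson correlation of log2 of mean CPM plus 1, 16 points that share libraries and depth). Igfbp3 was most like Ccm2l (0.997) and Crispld1 (0.996), Igfbp5 like Lmcd1 (0.956) and Gng11 (0.931), and Igfbp7 like Lamb1 (0.981) and Nectin3 (0.980). Mmp14 was most like Tbc1d9 (0.882) and Grn (0.867), Timp1 like Tmed3 (0.832) and Rraga (0.7997), and Timp2 like Smpdl3b (0.860) and 1600010M07Rik (0.833). Tgfb1 was most like Gsdmd (0.986) and Calhm2 (0.984), Tgfb2 like Efnb2 (0.929) and Gjc1 (0.900), and Gdf15 like Fzd7 (0.878) and Slc31a1 (0.805).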

How the data were processed

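Single-cell RNA of sorted kidney cells was measured in 2 BPTES and 2 DMSO libraries. The authors deposited raw UMI counts per gene and barcode, made with Cell Ranger 8.0.1 on mm10 per the submitters' processing notes; further upstream settings are not given in the sources used here. The libraries held 249881074 to 297947661 UMIs. Barcodes with at least 500 UMIs, at least 300 genes and at most 50% mitochondrial UMIs were kept, a wide limit because tubular cells are rich in mitochondria. Barcodes with the highest simulated-doublet scores, 0.4% per 1000 barcodes, 3867 in all, were removed (the caller's own cutoff marked 592). Cells were clustered with scanpy 1.11.5 and leidenalg 0.10.2 (3000 variable genes, 40 principal components, 15 neighbours, resolution 1), and clusters were named from marker lists; 8 clusters stayed unnamed (4326 cells, 9.26%).

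Counts were summed per library and class, and classes with at least 20 cells in each library were tested with edgeR 4.0.16 in R 4.3.3 (quasi-likelihood, robust, TMM, low-count filter at 10 counts and 15 in total), treatment as the only term, with Benjamini-Hochberg adjustment over all genes of a class. Each standard error is the absolute log2 fold change divided by the square root of its quasi-likelihood F statistic. CPM values are unadjusted sums. The script was tested on simulated data. Alternatives were DESeq2 1.42.0, RLE scaling, no filter, a 25% mitochondrial limit, doublets kept, resolution 2, a replicate block and leaving out each library. Named were all 9 genes in every class tested, up to 3 called genes per list and class with the largest fold change, and for each factor its 2 most similar genes among those with at least 50 CPM in a class. The members and lists were chosen with earlier results of these data known. Stromal, cluster and interaction tests, and those of parts of the CD45-positive sum, were chosen after the data had been seen. Promoter sequences are from RefSeq (GRCm38.p6), where all 9 genes matched.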

Additional observations from a re-analysis of the deposited data

Results flagged for a closer look

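For 2 genes the log2 fold changes of 2 classes differed in a test of the difference. The 5 pairs of classes were picked after their fold changes had been seen, so the tests describe these values and are not independent evidence. They used an interaction of class and treatment in edgeR, the library as a block, and Benjamini-Hochberg adjustment over all genes of a pair. Of 45 tests of the 9 genes, 2 passed and 13 had an unadjusted p under 0.05. In endothelium Igfbp7 stood at 153 and 138 CPM under BPTES against 208 and 387 CPM under DMSO (adjusted p = 0.529), and in proximal tubule at 1256 and 1338 CPM against 1002 and 1184 CPM (adjusted p = 0.240), so neither class passed on its own. The endothelial log2 fold change minus the tubular one was -1.32 ± 0.21 (adjusted p = 0.0257), where 0.33% of 17265 genes passed. Without BPTES 2 it was -1.13 (adjusted p = 0.206); without BPTES 1, DMSO 1 or DMSO 2 it passed. In injured proximal tubule Timp2 stood at 136 and 64.5 CPM under BPTES against 25.5 and 37.2 CPM under DMSO (adjusted p = 0.0975, not passing), and in monocytes at 96.5 and 76.1 CPM against 155 and 126 CPM (adjusted p = 0.0406). The first log2 fold change minus the second was 2.22 ± 0.33 (adjusted p = 0.0191), where 0.559% of 14314 genes passed. Without BPTES 1 it was 1.80 (adjusted p = 0.102). At clustering resolution 2 the monocyte value was 0.288, within cluster c17 the monocyte difference did not pass, and 1 cell held 56.2% and 73.7% of the injured proximal tubule UMIs under BPTES. Gdf15 did not pass, with differences of 2.07 between principal cells and proximal tubule (adjusted p = 0.292) and 5.14 between intercalated cells and proximal tubule (adjusted p = 0.428).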

How the results depend on the processing

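With 2 libraries a group, the number of calls moved with most choices. Within classes, the 3 calls became 16 with DESeq2 and 30 with no low-count filter. They became 18 with the label numbers as a replicate block and 2 at resolution 2. Timp1 in macrophages was lost in the block and had no adjusted p with DESeq2. None of the 3 was among the calls at resolution 2, without BPTES 1 or without BPTES 2, where other pairs were called instead. With a library left out the number of calls moved too. In the CD45 sums, the 3 calls became 1 in the block and 0 to 8 when a library was left out. In stromal cells, the 1 call became 2 with DESeq2 and 0 to 2 with a library left out. Over single clusters, the 6 calls became 15 to 25 with a library left out. Over the pathway lists, the 31 calls became 95 with DESeq2, 194 with no filter, 100 in the block, 47 with doublets kept and 8 to 210 with a library left out. Among the calls on the 9 genes, 1 reversed its direction: Timp2 in monocytes at resolution 2, with a log2 fold change of 0.288. The cause was not tested. On the lists, the direction of Areg differed between the CD45-positive sum and macrophages, monocytes and dendritic cells alone, as given above. The class with the highest level stayed the same for 4 of the 9 genes when classes with under 20 cells in a library were left out, since this drops the fibroblasts. At resolution 2 it stayed the same for 8, and for Igfbp7 became a thin limb class of 20 cells. The labels do not say that equal replicate numbers pair libraries, and they were treated as names. The correlation of same-numbered deviations was 0.160 in the CD45-negative and 0.0867 in the CD45-positive sum, and -0.220 to 0.422 in the 16 classes, highest in proximal tubule. There the replicate block raised the calls over all genes from 73 to 2165, Gdf15, Igfbp5, Igfbp7 and Timp1 among them. Over all classes the block called 7 pairs of the binding proteins and 4 of Gdf15, where the fit without it called 0 of either. DESeq2, the fit with no filter and the block all added the same 7 pairs: Gdf15 and Igfbp5 in proximal tubule, Igfbp5 and Timp2 in injured proximal tubule, Igfbp7 in B cells, and Mmp14 and Timp1 in monocytes. Of the other values, those of single genes, 75 kept their direction and their side of the threshold and 38 their direction alone. Few cells limit the fibroblast values, and few UMIs those of Timp1 in leukocytes.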

Other observations

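Unnamed clusters also held some of the factors. Cluster c38, led by Cryab, Psca and Fst (246 cells), had 425 and 391 CPM of Gdf15 under BPTES and 54.9 and 262 CPM under DMSO, with 3746 and 5190.2 CPM of Igfbp7 under BPTES and 5917 and 2794 CPM under DMSO. Its Timp2 stood at 122 and 152 CPM under BPTES and 238 and 220.3 CPM under DMSO, without passing the edgeR test (adjusted p = 0.507). Cluster c26, led by Aqp1, Lgr5 and Cldn5 (453 cells), carried all 9 endothelial markers. It stayed unnamed by the naming rule because its leading genes included Aqp1, listed here as a thin limb marker. It had 304 and 253 CPM of Tgfb2 under BPTES and 188 and 200 CPM under DMSO, without passing (adjusted p = 0.244). Its Gdf15 stood at 15.7 and 30.7 CPM under BPTES and 115 and 35.1 CPM under DMSO, so that DMSO 1 stood apart.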
